A study of Homo sapiens with 4 samples.

Results

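Pluripotency and self-renewal factors are genes that keep stem cells undifferentiated and dividing, and 9 of them were examined here: NANOG, SOX2, ZFP42, DPPA4, TDGF1, MYC, MYCN, BMI1 and TERT. A gene was measured where the platform annotation gave it at least 1 probe set with no other gene symbol. Under the symbols given here 7 of the 9 genes were measured, of 19775 named genes in all, by 25 of the 54675 probe sets on the array. BMI1 had no probe set of its own, because its single probe set also carried the symbol of a readthrough transcript. None was found under the symbol TDGF1. Symbols were updated before this search and the gene is now called CRIPTO, so the search does not show that the array lacks it. No values are given for these 2 genes.

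The samples were CD133+ cells and CD133- cells sorted by flow cytometry from Huh7, an established human hepatocellular carcinoma line with no treatment named in the labels. CD133, a membrane protein and the product of PROM1, serves to isolate tumour-initiating cells from liver cancers, and the comparison asks whether cells with this marker differ from the other cells of the same line. Each population was measured on 1 array, and each array was deposited as RMA values, which are on a log2 scale, and as MAS5 signals, which are linear. Both summaries come from the same arrays and are not replicates. Without a repeated array no difference has a replicate error, a test or a p-value, and precision is limited by the array number. The labels do not state the sort gates, the purity of the sorted cells or how many sorts were made.

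NANOG and SOX2 are transcription factors at the centre of the network that keeps embryonic stem cells pluripotent, and ZFP42 (REX1) and DPPA4 are genes that mark the same state. MYC and MYCN are related transcription factors that pair with MAX and drive growth, ribosome production and cell division; MYC is active in many dividing cells, while MYCN is best known from embryonic tissue and neuroblastoma. TERT is the catalytic subunit of telomerase, which lengthens chromosome ends. BMI1 belongs to Polycomb repressive complex 1 and TDGF1 is a co-receptor of the NODAL ligand.

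All differences below are CD133+ minus CD133- on the log2 scale. A probe set was counted as above the floor when its RMA value on the brighter array was over 4.86, which is the array-wide median of the brighter value. This floor ranks brightness only and does not replace a detection call. Where a gene had several probe sets, the one of highest mean RMA value stands for it. As a measure of technical spread, the differences of probe sets of the same gene had a within-gene SD of 0.17, taken over pairs with both above the floor. It does not cover any variation between cultures, sorts and hybridizations. The sort marker matched the labels, with a PROM1 RMA value of 10.49 in CD133+ cells and 5.33 in CD133- cells. Of the hepatocyte markers, all 9 with a probe set lay above the floor with RMA values from 10.68 to 14.01. Of the blood cell markers 4 of 7 lay above the floor, with the haematopoietic marker PTPRC below it. LYZ, lysozyme, made up nearly all of their MAS5 signal, and the other 6 summed to 418 in CD133+ cells and 433 in CD133- cells. Of the endothelial and stromal markers 6 of 11 did, and only the matrix genes LUM (difference 3.91, CD133- value below the floor) and COL1A2 (1.33) passed 1.5-fold by RMA. The summed MAS5 signal of this list was 3155 in CD133+ cells and 1778 in CD133- cells, and without LUM and COL1A2 it was 1038 in CD133+ cells and 1094 in CD133- cells. The part of such cells in the results below was not tested.

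MYC, MYCN and TERT lay above the floor, and NANOG, SOX2, ZFP42 and DPPA4 lay below it on every probe set. Over all named genes, 65.2% lay above the floor. Of the 3 members above it, only MYCN differed by at least 1.5-fold, and it was lower in CD133+ cells. Of all 12899 genes above the floor, 1.01% were lower and 3.67% were higher by at least 1.5-fold. No member differed by at least 2-fold, against 1.77% of genes above the floor. The median difference of the 3 members was -0.19, beside -0.0099 for all genes above the floor.

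**Figure D1:**
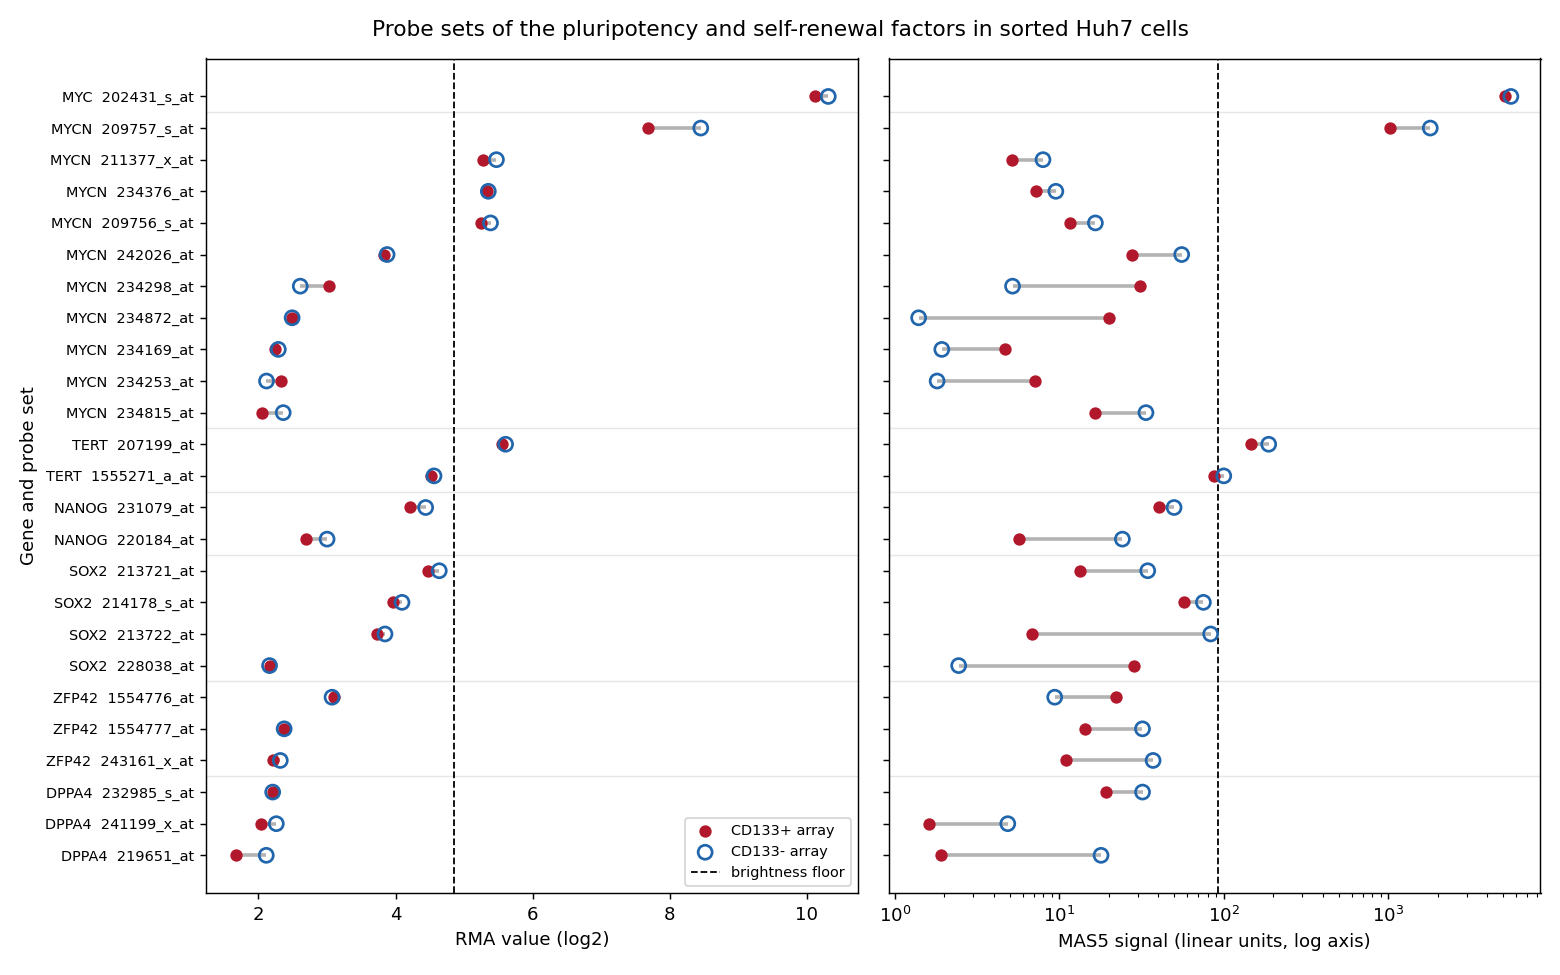
RMA values (left, log2) and MAS5 signals (right, linear units on a log axis) of the 25 member probe sets, 1 row per probe set, with filled points for the CD133+ array, open circles for the CD133- array and dashed lines at the brightness floors of 4.86 and 91.8. MYC and MYCN 209757_s_at stand well to the right of both floors, TERT lies near them, and NANOG, SOX2, ZFP42 and DPPA4 lie to the left in both panels.

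MYCN had the largest difference of the members above the floor. Its brightest probe set, 209757_s_at, had an RMA value of 7.69 in CD133+ cells and 8.45 in CD133- cells, a difference of -0.77 or 1.70-fold lower in CD133+ cells. The MAS5 signals of the same probe set were 1018 in CD133+ cells and 1796 in CD133- cells, a difference of -0.82, past 1.5-fold as 5.44% of genes above the MAS5 floor were in this direction. Both summaries thus place MYCN lower in the CD133+ population by a similar amount. Among the 12899 genes above the floor, 53 including MYCN had a difference this low or lower, which is 0.411%. In RNA from a whole population, fewer cells that make a transcript and less of it per cell cannot be told apart.

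The MYCN difference rested on that probe set. Of the other 9 MYCN probe sets, 3 lay above the RMA floor and gave smaller differences in the same direction: -0.19 for 211377_x_at, -0.15 for 209756_s_at and -0.01 for 234376_at. These 3 had MAS5 signals between 5.14 and 16.6, far under the MAS5 floor of 91.8. The remaining 6 lay below the RMA floor and went both ways, with 2 higher, 3 lower and 1 equal, from -0.31 to 0.42. With the mean over all 10 probe sets in place of the brightest, MYCN no longer lay above the floor and its difference was -0.09. Probe sets ending in _s_at, such as 209757_s_at, can match several transcripts, and without probe sets of that kind the MYCN difference was -0.01.

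The MYCN locus also holds MYCNOS, a long non-coding RNA gene that overlaps MYCN in the RefSeq annotation. Its brighter probe set had RMA values of 5.77 in CD133+ cells and 5.74 in CD133- cells, a difference of 0.03. The MAS5 signals of the same MYCNOS probe set were 12.7 in CD133+ cells and 96.1 in CD133- cells, so the summaries disagreed on it. The second MYCNOS probe set lay below the floor and differed by -0.10.

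MYC differed little between the arrays, with a slightly lower value in CD133+ cells. Its single probe set, 202431_s_at, had RMA values of 10.12 in CD133+ cells and 10.31 in CD133- cells. MYC therefore had no value without probe sets ending in _s_at. The MAS5 signals were 5134 in CD133+ cells and 5549 in CD133- cells. The difference was -0.19 by RMA and -0.11 by MAS5, the first just beyond the spread of 0.17 and the second within it. Of all genes above the floor, 16.0% had a difference as low or lower. MYCL, the third gene of the family and not among the 9, had RMA values of 5.54 in CD133+ cells and 5.43 in CD133- cells, a difference of 0.11 by RMA, against 0.66 by MAS5.

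TERT lay close to the floor and differed little between the arrays. The brighter TERT probe set had RMA values of 5.56 in CD133+ cells and 5.61 in CD133- cells, a difference of -0.05. The second TERT probe set, below the RMA floor, had 4.52 in CD133+ cells and 4.56 in CD133- cells. By MAS5 the brighter probe set had signals of 145 in CD133+ cells and 187 in CD133- cells, a difference of -0.37, and the second had 87.3 in CD133+ cells and 99.9 in CD133- cells. Both TERT probe sets were lower in CD133+ cells by RMA and by MAS5, which summarize the same arrays and are not replicates. The RMA differences were smaller than the spread between probe sets.

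The factors of the pluripotency core were not seen above the floor in either population. The brighter NANOG probe set had RMA values of 4.20 in CD133+ cells and 4.44 in CD133- cells, and the other, dimmer one differed by -0.30. The brightest of the 4 SOX2 probe sets had 4.47 in CD133+ cells and 4.64 in CD133- cells, which made it the member probe set closest under the floor, while MYCN 234376_at, at 5.35, lay closest above it. SOX2-OT, the non-coding transcript around SOX2, was dimmer still, with 1.60 in CD133+ cells and 1.56 in CD133- cells. The brightest ZFP42 probe set had 3.11 in CD133+ cells and 3.07 in CD133- cells. DPPA4, a nuclear protein of pluripotent cells, had equal RMA values of 2.21 in both populations on its representative probe set, and its other probe sets differed by -0.22 and -0.44. No fold is given for these 4 genes, since both populations lay under the floor.

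Values under the floor depended on how the probes were summarized. By RMA, none of the 19 member probe sets below the floor differed by at least 1.5-fold, against 1.81% of all probe sets below it. By MAS5, 16 of the same 19 did, 6 higher and 10 lower, against 59.6% of all probe sets below the RMA floor. SOX2 shows the size of this disagreement: by MAS5 its probe set 213722_at had signals of 6.81 in CD133+ cells and 83.1 in CD133- cells, while 228038_at had 28.4 in CD133+ cells and 2.45 in CD133- cells. These MAS5 differences are -3.61 and 3.53 for the same gene, and the RMA differences of the same probe sets were -0.12 and 0. Of the 19 dim probe sets, 4 had the same RMA value on both arrays in all deposited digits, as had 11.9% of all probe sets below the floor. A further 12 of the 19 were lower and 3 were higher, and of all probe sets below the floor 40.5% were lower.

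**Figure D2:**
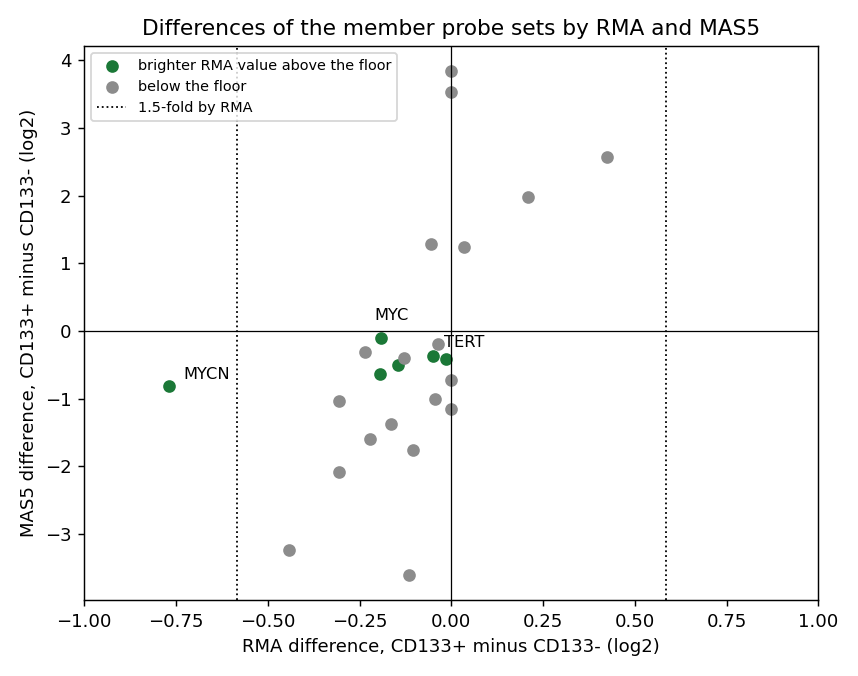
Difference CD133+ minus CD133- of each of the 25 member probe sets by RMA (horizontal axis, log2) and by MAS5 (vertical axis, log2), green where the brighter RMA value lay above the floor and grey below it, with dotted lines at 1.5-fold by RMA. The 6 green points, 4 of them MYCN probe sets, lie left of 0 and below 0, and only MYCN 209757_s_at passes the dotted line. Of all genes above the floor 51.1% were lower by RMA. The grey points spread from -3.61 to 3.84 by MAS5 and stay within the dotted lines by RMA.

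Among other genes of the pluripotent state, only the Krüppel-like factors KLF4 and KLF5 differed by at least 1.5-fold by RMA, both higher. Of all genes above the floor 3.67% were higher by that much. By MAS5 4 genes of the list were, KLF4, KLF5, SALL4 and DPPA2, beside 9.92% of genes above the MAS5 floor. DPPA2 lay below the RMA floor. The list held 27 genes, 22 had a probe set and 12 lay above the floor, of which 7 were lower and 5 higher, with a median of -0.02. KLF4, one of the classical reprogramming factors and also a factor of epithelial differentiation, had RMA values of 7.00 in CD133+ cells and 3.83 in CD133- cells, at least 4.43-fold higher against the floor, and the second KLF4 probe set lay below the floor in both populations. KLF5, a relative active in embryonic stem cells and in gut epithelium, had 9.49 in CD133+ cells and 8.22 in CD133- cells, a difference of 1.27, and its other probe set differed by 1.01. LIN28B, an RNA-binding protein that blocks let-7 maturation, was bright and differed little, with 11.00 in CD133+ cells and 11.24 in CD133- cells. LIN28A, its relative of embryonic stem cells, lay below the floor with 2.20 in CD133+ cells and 2.01 in CD133- cells. SALL4, a zinc finger factor of fetal liver and stem cells, differed by 0.23 by RMA and by 1.34 by MAS5, where its CD133- signal of 73.6 lay under the MAS5 floor. POU5F1 (OCT4) had no probe set of its own here. The list of SOX family genes had 8 of 19 above the floor, 4 lower and 4 higher, from -0.29 for SOX15 to 0.41 for SOX10, and none at 1.5-fold. The MAS5 signals of these SOX15 and SOX10 probe sets lay under the MAS5 floor. The other SOX15 probe set above the RMA floor went the other way, with a difference of 0.24.

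Partners and regulators of MYC and MYCN differed little by RMA. Of 17 listed genes above the floor none differed by at least 1.5-fold by RMA, and the median was 0.02. By MAS5 FBXW7 was lower and MXD3 and MYCL were higher by at least 1.5-fold. Of all genes above the MAS5 floor 5.44% were lower and 9.92% higher by that much. MAX, the obligate partner of both factors, had RMA values of 8.04 in CD133+ cells and 8.09 in CD133- cells, and its other 3 probe sets over the floor gave differences of 0.02, 0.10 and 0.16. FBXW7, the ubiquitin ligase subunit that marks MYC proteins for degradation, was the lowest of the list at -0.55, with 6.63 in CD133+ cells and 7.18 in CD133- cells. The other FBXW7 probe sets that passed the floor gave -0.15 and -0.34 by RMA. By MAS5 the first of them went the other way, with a difference of 0.42, and the second gave -0.72. MXD3, a MAX partner that opposes MYC, was the highest by RMA at 0.20, and its MAS5 signals were 1179 in CD133+ cells and 751 in CD133- cells, a difference of 0.65.

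The listed MYC target genes, many of which serve ribosome production, nucleotide synthesis or protein folding, were lower by small amounts. All 24 genes with a probe set lay above the floor and all 24 were lower by RMA, beside 51.1% of all genes above the floor and 56% of those above its 75th percentile, where all 24 lay. The median was -0.14, and none reached 1.5-fold. Of the 24, 11 were lower by more than the spread of 0.17, beside 18.9% of all genes above the floor. POLR1B, a subunit of RNA polymerase I, was lowest at -0.34, with RMA values of 8.49 in CD133+ cells and 8.83 in CD133- cells, and its other 3 probe sets differed by -0.26, -0.32 and -0.44. CDK4, a kinase of the G1 phase, was nearest to 0, with 11.41 in CD133+ cells and 11.42 in CD133- cells. By MAS5, 21 of the 24 were lower and ODC1, HSPD1 and TFRC were higher, while 49.5% of genes above the MAS5 floor were lower. Genes listed for a shared regulator are not independent of each other, and with 1 array per population a shift of this size has no replicate check.

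**Figure D3:**
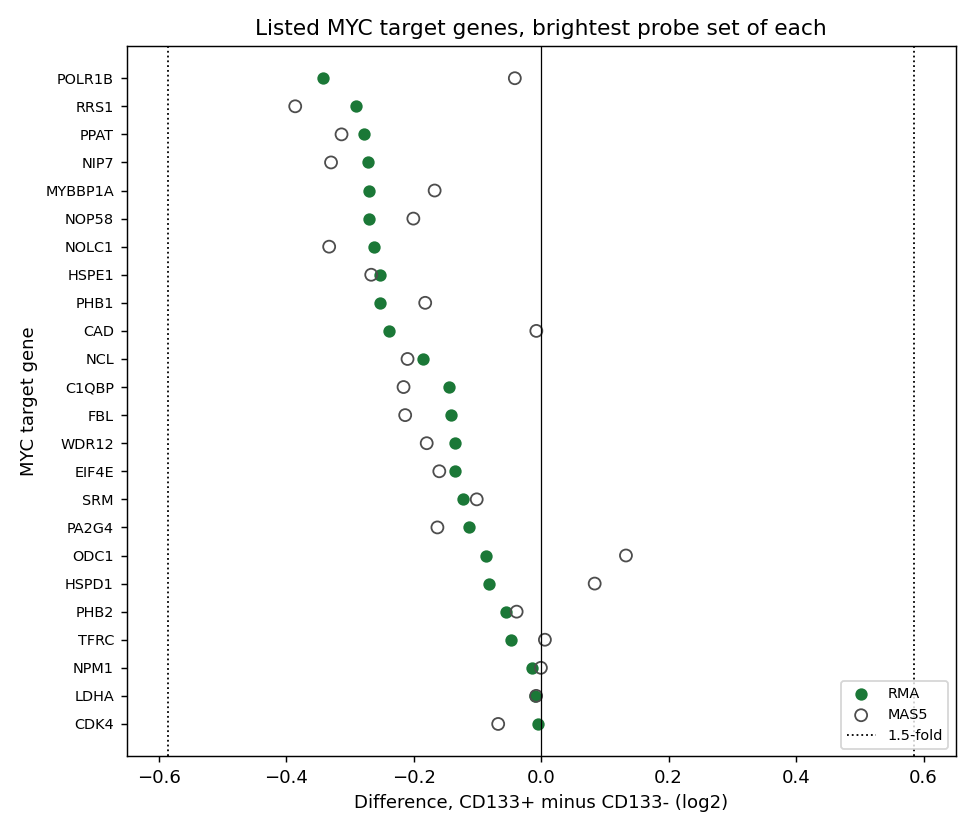
Difference CD133+ minus CD133- (log2) of the 24 listed MYC target genes on the brightest probe set of each, by RMA (filled) and by MAS5 (open), with dotted lines at 1.5-fold. All filled points lie between -0.34 and -0.0055, and the open points of ODC1, HSPD1 and TFRC lie to the right of 0.

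MYC and MYCN bind with MAX to the E-box CACGTG, which reads the same on both strands, and promoters were searched for it from 250 bases before to 50 bases after the start in the RefSeq promoter table of GRCh38.p14. Windows were found for 21 of the 24 target genes. Of these genes 10 held the E-box in at least 1 window, or 47.6%, beside 8.77% of all 27305 genes in the table. The genes were listed for being MYC targets, so this contrast may come from the choice of the list and is no result of the arrays. The sites that lie before the start are shown with 12 bases on each side, the nearest to the start for each gene, 5′ to 3′ on the gene's strand, with the E-box in capitals. HSPD1 and HSPE1, which encode partner chaperonins of mitochondria and are transcribed away from each other, share a single site, read here from opposite strands.
ODC1, chr2:10448024-10448053, minus strand: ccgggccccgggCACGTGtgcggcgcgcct
CDK4, chr12:57752394-57752423, minus strand: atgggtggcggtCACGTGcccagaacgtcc
LDHA, chr11:18394464-18394493, plus strand: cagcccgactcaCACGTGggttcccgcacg
EIF4E, chr4:98929188-98929217, minus strand: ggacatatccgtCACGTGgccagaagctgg
PPAT, chr4:56435780-56435809, minus strand: aacggagatttcCACGTGcagcaaatacag
SRM, chr1:11060200-11060229, minus strand: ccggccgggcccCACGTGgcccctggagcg
HSPD1, chr2:197500345-197500374, minus strand: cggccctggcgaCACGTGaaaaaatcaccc
HSPE1, chr2:197500345-197500374, plus strand: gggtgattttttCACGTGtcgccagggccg

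Target genes with and without the E-box in the searched windows had similar differences. Sites outside the windows were not searched. The 10 genes with an E-box had a median of -0.13, from -0.28 for PPAT, which starts purine synthesis, to -0.01 for CDK4. The 11 genes without one had a median of -0.14, from -0.34 to -0.01. HSPE1 and HSPD1, which share their site, differed by -0.25 and -0.08. Windows were found for 7 of the members, all but MYC and TDGF1, and 2 of these 7 genes (28.6%) held the E-box. TERT held 1 E-box in its window and BMI1 held 1 in its 2 windows, while no match was found in those of NANOG, SOX2, MYCN, ZFP42 and DPPA4. A match describes the letters of a window and does not show binding.

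For BMI1, which had no values, RNA of other listed subunits and associated proteins of Polycomb repressive complex 1 was examined. The list was not limited to genes whose proteins join BMI1 in a complex. Of the 17 listed genes of this kind above the floor 7 were lower and 10 higher, with a median of 0.03, and none differed by at least 1.5-fold by RMA. PHC3, a polyhomeotic subunit, was lowest at -0.24, and SCMH1, a Polycomb-associated protein, was highest at 0.36, with RMA values of 6.85 in CD133+ cells and 6.49 in CD133- cells. CDKN2A, the tumour suppressor gene best known for repression by BMI1, had 9.94 in CD133+ cells and 9.73 in CD133- cells, a difference of 0.22. It is counted with these genes in the plot of related lists. Its second probe set above the floor differed by -0.05. By MAS5, with CDKN2A counted in, 10 genes of the list were lower and 8 higher. PCGF1 alone was lower by at least 1.5-fold by MAS5, at -0.80, while its RMA difference was 0.09. Of all genes above the MAS5 floor 5.44% were lower by that much.

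The partners of TERT at the telomere differed little as well. Of 18 listed genes above the floor 15 were lower, TINF2 and TERF2IP were higher and RTEL1 was equal on both arrays, with a median of -0.09 and none at 1.5-fold by RMA. Of all genes above the floor 51.1% were lower, and by MAS5 12 genes of this list were lower and 5 higher. NAF1, which helps assemble the telomerase particle, was lowest at -0.34 by RMA but differed by 0.23 by MAS5. TINF2, a shelterin protein, was highest at 0.28, with RMA values of 8.22 in CD133+ cells and 7.94 in CD133- cells, and its other probe sets differed by 0.16 and 0.15. PINX1, an inhibitor of telomerase, differed by -0.32 by RMA and by -0.84 by MAS5. TERC, the RNA template of telomerase, had no probe set of its own here.

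In the list for the NODAL pathway, where TDGF1 acts, FST and LEFTY1 were lower by at least 1.5-fold by RMA. Of all genes above the floor 1.01% were. FST encodes a secreted antagonist of activin and LEFTY1 one of NODAL, and by MAS5 FST alone was lower by at least 1.5-fold. Of 23 listed genes 13 lay above the floor, 9 lower and 4 higher, with a median of -0.11. FST, follistatin, which traps activin, had RMA values of 9.56 in CD133+ cells and 10.16 in CD133- cells, a difference of -0.61, and its other probe sets differed by -0.75 and -0.70. By MAS5 the 3 FST probe sets differed by -0.74, -0.97 and -1.33, so all of them placed FST lower in CD133+ cells. LEFTY1, an inhibitor of NODAL and a target of the pathway, had 5.16 in CD133+ cells and 5.91 in CD133- cells, a difference of -0.75, but its MAS5 signals of 211 in CD133+ cells and 239 in CD133- cells differed by only -0.18. NODAL itself had 5.68 in CD133+ cells and 5.41 in CD133- cells, with MAS5 signals under the MAS5 floor on its 3 probe sets, and its second probe set above the RMA floor differed by -0.09. GDF3, a related ligand of pluripotent cells, lay below the floor.

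**Figure D4:**
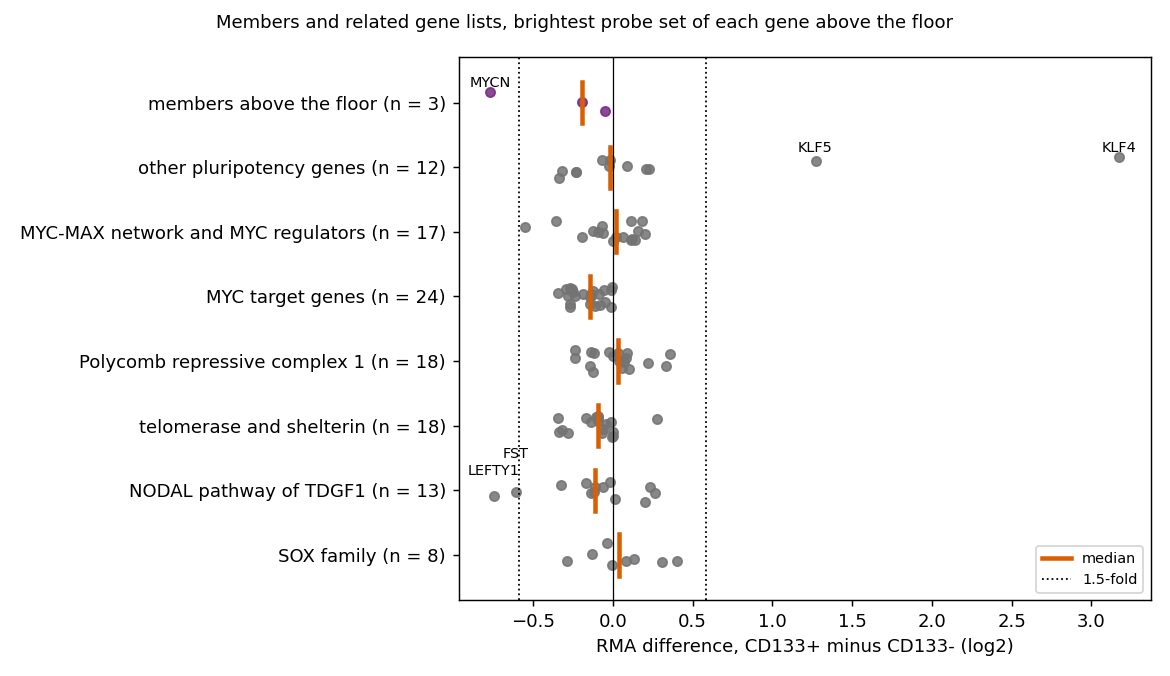
Difference CD133+ minus CD133- by RMA (log2) of the 3 members above the floor (top row) and of the genes above the floor in the 7 related lists, 1 point per gene, with orange bars at the medians and dotted lines at 1.5-fold. Only MYCN, FST and LEFTY1 lie beyond the line on the lower side and only KLF4 and KLF5 on the higher side.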

How the data were processed

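Total RNA of each sorted population was amplified and biotin-labelled, per the labels' protocols. The deposited table has 4 columns, taken as 1 array per population summarized by 2 algorithms. The authors deposited MAS5 signal intensity on a linear scale, with a 2% trimmed mean of 500.1 on both arrays, and RMA log2 values from 1.33 to 14.18. Per the submitters' processing notes the tools were MAS5, RMA and GCOS, with no version; which arrays RMA normalized jointly was not stated. Equalized distributions hide any global shift. Of 54675 probe sets, 41097 had 1 gene symbol, 1801 several and 11777 none in the platform annotation; 41043 were updated through the Entrez number to GRCh38.p14. Only probe sets with 1 symbol were used to name genes. The MAS5 floor was 91.8, the median of the brighter signal. Calculations used Python 3.11.15 and pandas 2.3.3 and were tested on simulated data. The SD between probe sets came from 16955 pairs. The members, lists and rules were chosen with earlier results of these data known. The text names all members, list genes at 1.5-fold or otherwise each list's extremes, and genes named for their role. FBXW7's further probe sets, MYCNOS, SOX2-OT, LIN28A, LIN28B, SALL4, PINX1 and GDF3 were chosen after their values were seen, as was the E-box search.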

Additional observations from a re-analysis of the deposited data

How the results depend on the processing

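The counts and the median of the members were recomputed with MAS5, with a floor at the 75th percentile (6.79), with no floor (not for the count above it), with averaged probe sets and without probe sets ending in _s_at, _x_at or _a_at. The difference of each member was recomputed with MAS5, with averaged probe sets, without suffixed ones where others remained, and after subtracting the median of all probe sets above the floor. The related lists were recomputed with MAS5, the higher floor and averaged probe sets only. Of 73 recomputed values, 58 moved by less than 0.17 or, for counts, by no more than 1.5 times, and 15 moved further. The count of members at 1.5-fold was 0 with averaged probe sets, where the MYCN difference was -0.090, and 0 after removal of the suffixed probe sets, where it was -0.013. The median difference of the members was -0.37 by MAS5 and -0.48 with the higher floor, which left out TERT, and the TERT difference was -0.37 by MAS5. Among the related lists, 4 genes were lower by 1.5-fold by MAS5 (FST, FBXW7, PCGF1 and PINX1) and 1 with the higher floor, against 2; by MAS5 6 were higher, against 2. These MAS5 counts are of 105 genes, and of all genes above the MAS5 floor 5.44% were lower and 9.92% higher by 1.5-fold. The MYCN difference stayed negative in its 4 alternatives, but the values of -0.090 and -0.013 were smaller in size than 0.17. Subtracting the median, which gave -0.75, shifts every gene by the same amount. The medians of the Polycomb list (-0.02) and the SOX list (-0.01) by MAS5, of the SOX list with averaged probe sets (-0.06) and of the MYC-MAX list with the higher floor (-0.03) lay on the other side of 0 from the main medians of 0.04, 0.04 and 0.02; the MYC target, telomere and NODAL medians were negative in all 3 alternatives run for them. No paired analysis was possible because each population has 1 array, and for the same reason no array could be left out.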
